A study of Mus musculus with 14 samples.

Results

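The peaks described here lie on mouse chromosome 14 between 45 and 65 Mb (mm9 build, positions counted from 1), a stretch of 20 Mb in which chromatin immunoprecipitation with sequencing (ChIP-seq) for AHCY gave very different numbers of peaks in its 2 replicates. Members were chosen by the position of their midpoint, and the stretch itself was chosen by its surplus of replicate 2 peaks over replicate 1 peaks. It held 232 of the 11733 peaks of replicate 2 and 8 of the 4465 peaks of replicate 1. The peak numbers and their ratio are therefore a description of how the stretch was picked. The remainder of chromosome 14, with 146 replicate 2 peaks and 88 replicate 1 peaks, served as the reference.

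The cells were wild-type (unmodified) E14 cells, an embryonic stem cell line from a male mouse blastocyst of the 129/Ola strain, kept in the naive state without serum, with LIF and with PD0325901 and CHIR99021, which inhibit MEK and GSK3. The 2 AHCY libraries were made with a rabbit antibody against AHCY. The series also holds 1 library made with rabbit IgG and 11 RNA-seq libraries, which were not used here. The labels do not say whether the replicates came from separate cultures. A peak list carries no read count, so the depth behind each peak is unknown.

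AHCY hydrolyses S-adenosylhomocysteine to adenosine and homocysteine. S-adenosylhomocysteine is left behind whenever a methyltransferase uses S-adenosylmethionine, and it inhibits those enzymes if it accumulates, so its removal keeps methylation of DNA, RNA and histones running. ChIP-seq maps where an antibody's target lies on chromatin, and a peak is an interval in which a peak caller found more reads than its background model allows. Chromosome 14 of the mouse is home to genes such as Bmp4, a secreted growth factor, Otx2 and Gata4, which are transcription factors of early development, and Trac, the constant segment of the T-cell receptor alpha chain. Which genes lie beside the peaks was not determined.

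In replicate 2 the stretch held 61.4% of the chromosome's 378 peaks (exact 95% interval 56.3 to 66.3%) within 17.3% of its span from first to last peak. In replicate 1 it held 8 of 96 peaks (8.33%, 3.67 to 15.8%). Per Mb, replicate 2 had 11.6 peaks in the stretch and 1.53 on the rest of the chromosome, whereas replicate 1 had 0.4 and 0.922. The stretch was thus dense in one list and sparse in the other.

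The 1 Mb windows show how unevenly the 232 peaks were laid out. Of the 20 windows in the stretch, 18 had more replicate 2 than replicate 1 peaks, 1 had equal numbers and 1 had fewer. Replicate 2 had its highest counts, 46 and 39 peaks, in the neighbouring windows from 55 to 56 and from 56 to 57 Mb. The window from 53 to 54 Mb had 0 peaks in both lists, and that from 50 to 51 Mb had 1. Of the 20 windows, 8 held at least 10 replicate 2 peaks, compared with 0 of the 97 windows on the rest of the chromosome and 3.66% of all 2131 windows on the autosomes other than 6 and 8. On the 15 autosomes other than 6, 8, 11 and 14, no window exceeded 24 peaks in replicate 2, while on chromosome 11 the highest count was 122. Replicate 1 had peaks in 3 of the 20 windows and at most 4 in any of them.

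**Figure D1:**
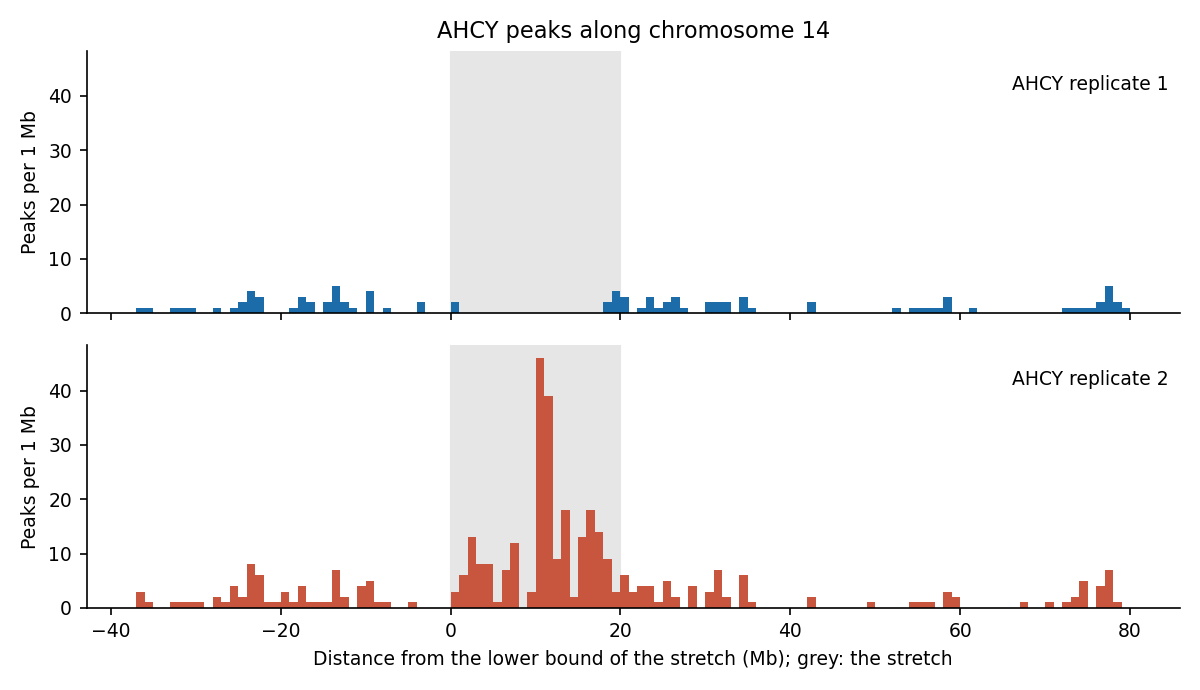
Peaks per 1 Mb window along chromosome 14 in AHCY replicate 1 (top) and replicate 2 (bottom), against the distance from the lower bound of the stretch in Mb; the stretch is grey. Replicate 2 reached 46 and 39 peaks in 2 neighbouring windows, while replicate 1 had 0 peaks in 17 of the 20 windows of the stretch.

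The edges of the stretch differed in shape. On the lower side, the last replicate 2 peaks before it lay at 37781300 to 37782093 (score 61.8) and 40285535 to 40286402 (score 52.5). After a gap of 5553 kb the first members followed at 45839269 to 45840571 (score 117) and 45937431 to 45938867 (score 119). Replicate 1 had 2 peaks in that gap, at 41707195 to 41709372 and 41725967 to 41728969, with scores of 88.0 and 95.6. These were chosen after their values were seen. On the upper side the change was gradual. The last members, at 64561375 to 64563209 (score 52.0) and 64902305 to 64903749 (score 69.2), were followed at 65214089 to 65215155 (score 54.0) and 65716010 to 65717270 (score 75.7), with 310 kb between the last peak inside and the first outside. These last members and the first peak outside lay 312 to 341 kb from their nearest neighbour, but the peak at 65716010 had one at 20.4 kb. The windows just inside the upper bound, from 63 to 65 Mb, held 9 and 3 replicate 2 peaks against 2 and 4 of replicate 1. The window just outside, from 65 to 66 Mb, held 6 of replicate 2 and 3 of replicate 1.

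The replicate 1 peaks sat at the margins of the stretch. Of the 8, 2 lay near the lower bound and 6 near the upper one. Between them, from 45938846 to 63740632, the replicate 1 list was empty for 17.8 Mb. This was the longest distance between neighbouring peaks in that list, where the median distance was 164 kb and the next longest were 12.5 Mb on chromosome 7 and 12.4 Mb on chromosome 15. The peaks on either side had replicate 1 scores of 86.7 and 172. Replicate 2 had 224 peaks in that gap, or 12.6 per Mb. In the other 10 of the 12 longest replicate 1 gaps that lay outside chromosomes 6 and 8, which were 9.46 to 12.5 Mb long, replicate 2 had between 0 and 4 peaks with a median of 2. These included 2 further gaps on chromosome 14, of 11.03 and 10.03 Mb, with 2 replicate 2 peaks each. The remaining gap, 9.14 Mb on chromosome 6, held 23.

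**Figure D2:**
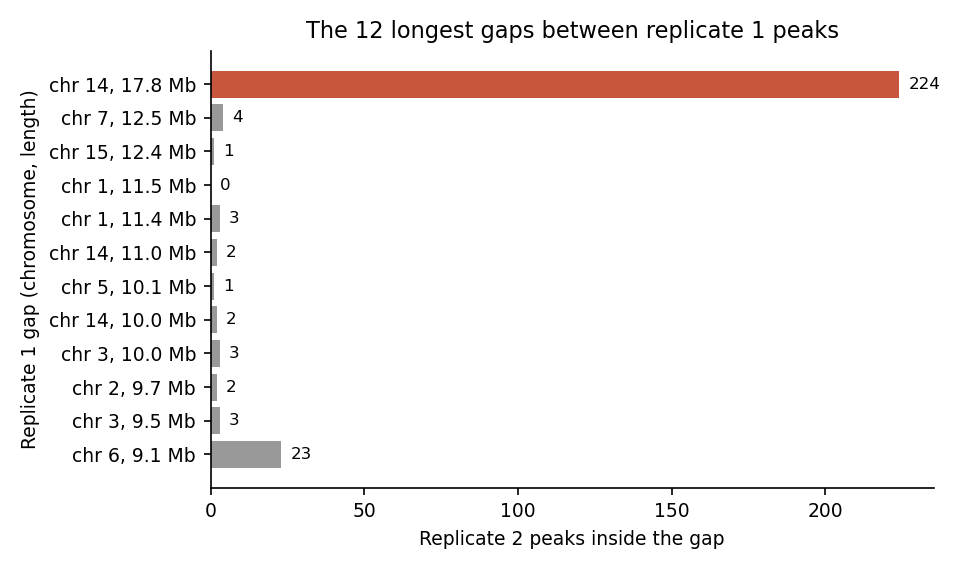
Number of replicate 2 peaks (bars) inside each of the 12 longest gaps between neighbouring replicate 1 peaks, labelled by chromosome and length and ordered by length. The gap in the stretch (red) held 224 replicate 2 peaks, compared with 0 to 4 in the other gaps outside chromosome 6 and 23 in the gap on chromosome 6.

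Only at the margins did the lists have sites in common. Of the 8 replicate 1 peaks, 4 overlapped a replicate 2 peak by at least 1 bp (50.0%, exact 95% interval 15.7 to 84.3%), beside 51.4% over the whole replicate 1 list. Seen from replicate 2, 4 of the 232 members were shared (1.72%, 0.472 to 4.35%), compared with 39 of 146 (26.7%, 19.7 to 34.7%) on the rest of chromosome 14 and 19.7% over the whole replicate 2 list. With so few replicate 1 peaks the share seen from replicate 2 was bound to be low. From 47 to 63 Mb, 0 of 211 replicate 2 peaks were shared, which allows a share of up to 1.42%, and there replicate 1 had 0 peaks to share.

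The 4 shared sites were well aligned. At the lower margin, the replicate 1 peak at 45839253 to 45840821 (score 61.0) contained the whole replicate 2 peak of 1303 bp (score 117), with midpoints 117 bp apart. Its neighbour at 45937437 to 45938845 (score 86.7) coincided with a replicate 2 peak of score 119, with midpoints 8 bp apart and 1409 bp in common. At the upper margin, the replicate 1 peak at 63740633 to 63743175 was the best-scoring of the 8 (172, rank 77 of its list). Its replicate 2 partner had a score of 104 and rank 2937, and the midpoints lay 75 bp apart. The replicate 1 peak at 64161961 to 64163401 (score 96.8) overlapped a replicate 2 peak of score 60.9, with midpoints 42 bp apart. Scores of the lists are not known to share a scale, so they are not compared with each other. In the order given, the sites ranked 2820, 1157, 77 and 832 of 4465 in replicate 1 and 2271, 2199, 2937 and 8238 of 11733 in replicate 2.

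The other 4 replicate 1 peaks had no partner and lay together near the upper bound. They were found at 63889001 to 63890018 (score 60.4), 64054068 to 64055621 (71.2), 64224486 to 64225391 (64.0) and 64331501 to 64332719 (50.1). Their nearest replicate 2 peaks were 23.6, 106, 61.2 and 168 kb away. In the window from 64 to 65 Mb replicate 1 therefore had more peaks than replicate 2, the reverse of the order in the 18 windows counted above.

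Scores of the 232 replicate 2 peaks stayed within the lower part of the list's range, which ran from 50 to 1307.2. The lowest was 50.1, the median 78.0 (interquartile range 61.1 to 118) and the highest 394. The rest of chromosome 14 had a median of 73.8 (58.3 to 114), the 15 other autosomes 73.5 and the whole list 73.0. Scores of at least 100 were found for 76 members (32.8%, 26.8 to 39.2%) and for 49 peaks on the rest of the chromosome (33.6%, 26.0 to 41.8%). Scores of at least 200 were found for 14 members (6.03%, 3.34 to 9.92%) and for 8 peaks (5.48%, 2.40 to 10.5%). These intervals overlap widely. The order of the medians was not stable. Members stood 4.22 above the rest of the chromosome in the whole list and 12.3 above it among peaks without a partner, but with the list shortened to the length of the replicate 1 list the difference was -14.0. The members' share of the chromosome's replicate 2 peaks was 63.4% at a minimum score of 75, 60.8% at 100, 55.1% at 150 (27 of 49, exact 95% interval 40.2 to 69.3%), 63.6% at 200 (14 of 22) and 85.7% at 300 (6 of 7, 42.1 to 99.6%). Each of these shares exceeded the stretch's 17.3% of the chromosome's span. They draw on the same peaks that chose the stretch, so they are a description only, and the shares at high scores rest on few peaks.

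**Figure D3:**
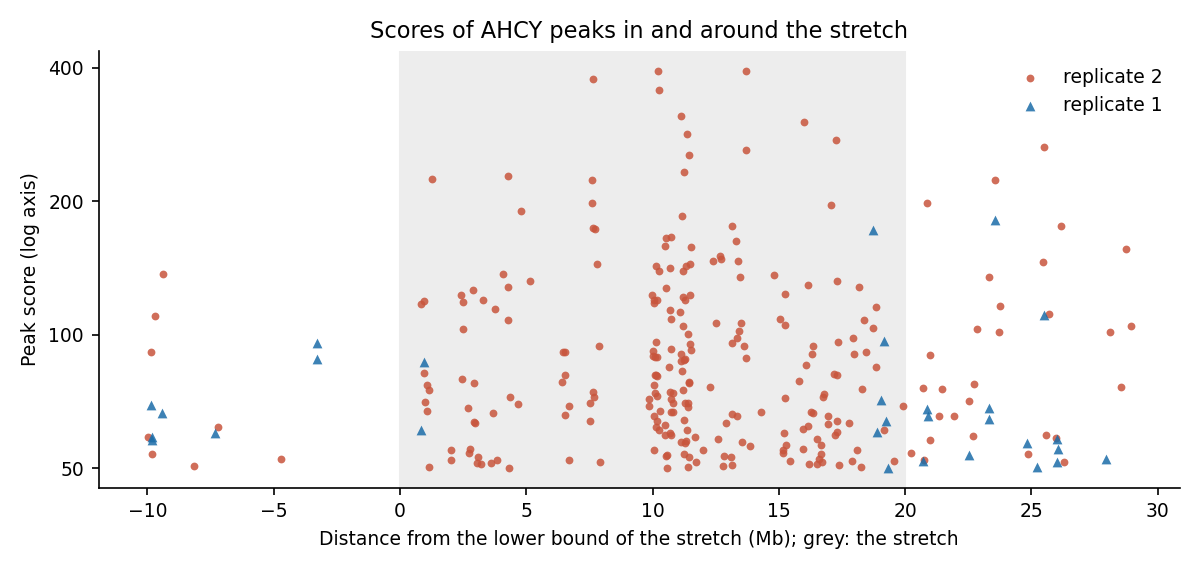
Score of each peak (log axis) against its distance from the lower bound of the stretch in Mb, for replicate 2 (red circles) and replicate 1 (blue triangles), from 10 Mb before the stretch (grey) to 10 Mb after it. Replicate 2 scores ran from 50.1 to 394 in the stretch, and the 8 replicate 1 peaks lay near its margins.

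The strongest members ranked high in the replicate 2 list and had no counterpart in replicate 1. The best was at 58692663 to 58695921, with a score of 394 and rank 64 of 11733. It was also the widest member, at 3259 bp, and had the ninth best, at 58689890 to 58692136 (score 260), directly beside it. Next came 55194244 to 55197084 (393.8, rank 65), 52638125 to 52640404 (376, rank 77) and 55259610 to 55262775 (356, rank 94). The last of these was the second widest, at 3166 bp. These 4 were the only peaks of chromosome 14 among the best 100 of the list. The remaining peaks of the best 10 lay at 56109096 to 56110991 (score 311), 60996038 to 60998891 (302), 56379655 to 56382566 (284), 62266135 to 62268382 (274) and 56441404 to 56444392 (254). The last was the third widest, at 2989 bp. Of these 10, 0 were shared, beside 19.7% over the whole replicate 2 list. That was fixed in advance, because all 10 lay between 47 and 63 Mb, where replicate 1 had 0 peaks. Between 55 and 59 Mb lay 7 of the 10, with their nearest neighbour within 20 kb. The peak at 60996038 stood farthest from others, with 54.0 kb to the nearest.

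Elsewhere, high-scoring replicate 2 peaks were shared more often than low-scoring ones, while in the stretch hardly any were shared at any score, as the empty replicate 1 list from 47 to 63 Mb fixes. Of the replicate 2 peaks with a score of at least 150, 0 of 27 members were shared, which allows a share of up to 11.1%. On the rest of chromosome 14 it was 16 of 22 (72.7%, 49.8 to 89.3%), on the 15 other autosomes 263 of 385 (68.3%), on chromosome 6 99 of 277 (35.7%) and on chromosome 8 126 of 452 (27.9%). Among scores from 50 to below 75 the shares were 0.917% in the stretch (1 of 109), 9.33% on the rest of the chromosome (7 of 75) and 24.2% on the 15 other autosomes. All 3 remaining shared members had scores from 100 to below 150, where they made up 6.12% of 49 peaks. Chromosomes 6 and 8 also had many more replicate 2 than replicate 1 peaks. There replicate 1 had 1.56 and 1.92 peaks per Mb, and 83.8% and 87.4% of its peaks were shared.

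Members were narrow for the list. Their widths ran from 515 to 3259 bp, and the middle 50% lay between 884 and 1399 bp around a median of 1043 bp. The median was 1265.5 bp (interquartile range 1011 to 1848 bp) on the rest of chromosome 14, 1456.5 bp on the 15 other autosomes, 1486.5 bp on chromosome 6 and 1649 bp on chromosome 8. Of the members, 103 (44.4%, 37.9 to 51.0%) were narrower than 1 kb, compared with 35 of 146 on the rest of the chromosome (24.0%, 17.3 to 31.7%) and 15.5% on the 15 other autosomes. The flanks of the stretch gave unlike values. Before the stretch the median width was 1155 bp and 32.3% (21.2 to 45.05%) were under 1 kb, an interval that overlaps that of the members. After the stretch it was 1377 bp and 17.3% (9.78 to 27.3%). The intervals of the flanks overlap each other. The 8 replicate 1 peaks of the stretch had a median width of 1425 bp, compared with 1445.5 bp for the other replicate 1 peaks of the chromosome.

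The difference in width lay among weak and middling peaks. With scores from 50 to below 75, the median width was 883 bp in the stretch and 1110 bp on the rest of the chromosome, with 109 and 75 peaks. From 75 to below 100 it was 1078 and 1256.5 bp, and from 100 to below 150 it was 1376 and 1706 bp. At 150 and above the medians came together, at 2022 and 1985 bp, while chromosome 6 stood at 2805 bp and chromosome 8 at 3186 bp. Wider peaks had higher scores. Spearman's rho of width and score across peaks was 0.78 over the 232 members, 0.58 over the 146 peaks on the rest of the chromosome and 0.42 over the 15 other autosomes. These values describe peaks of 1 library, which share its depth and its caller, and the difference between them was not tested.

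**Figure D4:**
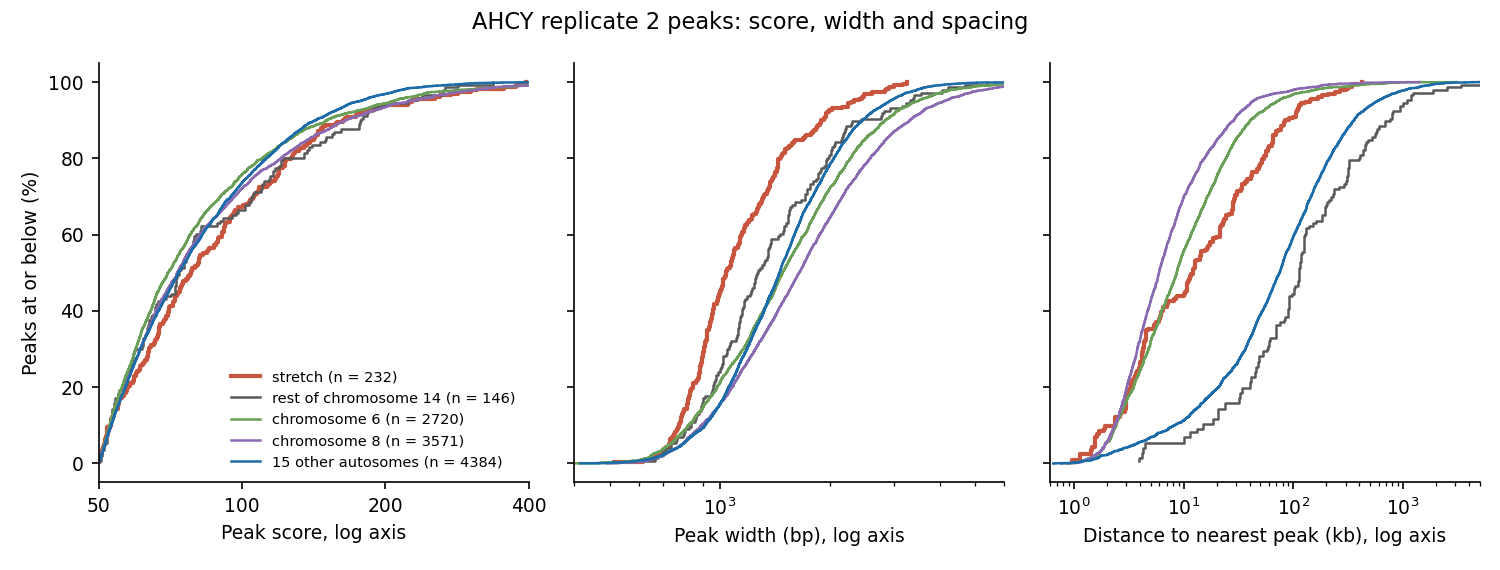
Cumulative percentage of replicate 2 peaks at or below a given score (left), width in bp (middle) and distance to the nearest other peak in kb (right), on log axes, for the stretch, the rest of chromosome 14, chromosomes 6 and 8 and the 15 other autosomes. Scores largely coincide, with medians from 69.9 to 78.0, whereas members of the stretch were narrower than the other sets and their spacing lay between that of chromosome 6 and that of the 15 other autosomes at the median.

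Members lay close together for their chromosome. The median distance from a member to the nearest other replicate 2 peak was 12.1 kb (interquartile range 3.94 to 41.2 kb), compared with 112 kb (46.2 to 308 kb) on the rest of the chromosome, 74.8 kb on the 15 other autosomes, 8.63 kb on chromosome 6 and 5.94 kb on chromosome 8. Close spacing follows in part from the number of peaks, which chose the stretch. A neighbour within 20 kb was found for 138 members (59.5%, 52.9 to 65.9%) and for 17 of the 146 others on the chromosome (11.6%, 6.93 to 18.0%). The share was 54.7% over the whole replicate 2 list, where the median distance was 15.3 kb. It was 75.2% on chromosome 6, 84.8% on chromosome 8 and 19.55% on the 15 other autosomes. The members were thus near the list as a whole in this. Chained at 20 kb, the members formed 133 groups, of which 94 were single peaks and 10 held at least 5 peaks. Those 10 groups contained 65 members (28.0%), beside 29.9% of peaks in such groups over the whole replicate 2 list. On chromosomes 6 and 8 the shares were 37.35% and 61.3%, and on the 15 other autosomes 1.14%. The rest of chromosome 14 had 0 groups of that size, and its largest held 3 peaks.

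Most of the large groups lay in a short part of the stretch. Of the 10, 9 lay between 55 and 57 Mb and the other at 52603957 to 52640404, with 5 peaks and the highest median score, 198. The largest group had 10 peaks over 52.6 kb, from 55681570 to 55734210. Its scores ran from 59.4 to 166, and its peaks covered 24.4% of its length. The strongest of them, at 55731736 to 55734210, closed the group, and the second strongest, at 55681570 to 55683053 with a score of 141, opened it. The next largest had 9 peaks from 56441404 to 56520258, over 78.9 kb, with scores from 53.0 to 254. Replicate 1 had 0 peaks in any of the 10 groups. In windows of 100 kb, 103 of the 200 in the stretch had no replicate 2 peak, while 13 windows with at least 5 held 93 of the members (40.1%).

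Between the dense parts the replicate 2 list had wide gaps. The longest within the stretch ran from 52934872 to 54842586, a length of 1908 kb. It was followed by one of 1259 kb from 50145718 to 51404629 and one of 813 kb from 51691117 to 52504505. In all, 5 of the 231 gaps between neighbouring members exceeded 500 kb, while 15 were under 1 kb and the median was 26.7 kb. All 3 of the longest lay between 50 and 55 Mb, where replicate 2 had 23 peaks, or 4.6 per Mb. The part from 55 to 60 Mb, directly after, had 114, or 22.8 per Mb, which lies between the 18.7 per Mb of chromosome 6 and the 27.8 per Mb of chromosome 8.

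The 4 parts of 5 Mb also differed in score and width. The median score was 73.8 from 45 to 50 Mb (38 peaks), 81.3 from 50 to 55 Mb (23), 87.3 from 55 to 60 Mb (114) and 67.0 from 60 to 65 Mb (57). The interquartile ranges, 55.1 to 118, 69.7 to 138, 63.9 to 123 and 56.4 to 94.3, overlapped throughout. The last part had the narrowest peaks, with a median of 923 bp and 61.4% under 1 kb (47.6 to 74.0%), and that from 55 to 60 Mb had a median of 1131 bp and 36.8% (28.0 to 46.4%). Peaks covered 2.98% of the part from 55 to 60 Mb and 0.583% of that from 50 to 55 Mb. Over the stretch as a whole they covered 282 kb or 1.41% in replicate 2, compared with 0.235% on the rest of the chromosome, and 11.7 kb or 0.0583% in replicate 1, compared with 0.146%.

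The stretch of chromosome 11 from 96 to 98 Mb, another local surplus of replicate 2 peaks, gave different values. It had 88 replicate 2 peaks per Mb, at the median 2458 bp wide and with a score of 95.02, and 3.98% were under 1 kb. Replicate 1 had 11 peaks per Mb there, of which 72.7% (49.8 to 89.3%) were shared. On chromosome 14 the replicate 2 peaks were thus sparser and narrower, and the replicate 1 density was below that of the rest of its chromosome. The densities are averages over unlike lengths, 2 Mb on chromosome 11 and 20 Mb on chromosome 14. The densest 1 Mb windows of the chromosome 14 stretch held 46 and 39 replicate 2 peaks. The differences between these stretches were not tested. The lists name different pools in their headers and may have been called against different controls, and the part of this in the values above was not tested.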

How the data were processed

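Analysed were 2 AHCY ChIP-seq libraries, each as 1 list of peaks; the IgG library and the 11 RNA-seq libraries were not used here. The submitters' processing notes name Bowtie, TopHat and the mouse build mm9 and state neither role nor version. Peak names carry the prefix MACS, per the file headers and name columns, with no version or settings stated. The score is the authors' deposited value per peak, on a scale that is not stated, and starts at 50 in both lists. Scores served only to describe and rank peaks within their list. The replicate 2 header names an IgG pool and the replicate 1 header a pool with no control named, per the file headers, so the lists may differ in how they were called. Read depth is not given.

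Starts were converted to count from 1. Peaks were assigned by midpoint, and those overlapping across lists by 1 bp or more were taken as shared. Spacing was the distance between midpoints, and peaks with neighbours within 20 kb were chained into groups. Named were every replicate 1 peak, the 10 best-scoring and 3 widest replicate 2 peaks, the largest group, the pairs beside each bound and the longest gap of each list in the stretch. Further features named, such as the other groups and gaps, were chosen after their values were seen. The members, the bands of score and the comparisons were chosen with earlier results of these data known. No test was run, because position and number chose the members and peaks of 1 library are not replicates. Shares carry exact 95% binomial intervals (Clopper-Pearson), and a share of 0 carries the limit that 3 counts would give; neither accounts for more than counting error, and neighbouring peaks depend on each other. The alternatives were narrower bounds, the better-scoring part of each list, lists of equal length, merged neighbours, other overlap rules and each replicate alone. The overlap, spacing and grouping steps were checked on simulated data. The work used scipy 1.17.1, pandas 2.3.3, numpy 2.4.6 and matplotlib 3.10.9 under Python 3.11.15. No genome or annotation of mm9 was used, so peaks carry no gene names and no sequence.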

Additional observations from a re-analysis of the deposited data

How the results depend on the processing

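Of 25 alternatives, 13 left a value within its stated tolerance (1.5 times for counts and differences, the exact interval for shares). The number of replicate 2 peaks in the stretch was 129 with the better-scoring 50% of the list and 104 with lists of equal length, where fewer peaks are counted by construction; it was 211 from 47 to 63 Mb and 217 with close neighbours merged. Replicate 1 had 4 peaks there with the better-scoring 50% and 0 from 47 to 63 Mb. Of both lists together, 50.6% of the chromosome's peaks lay in the stretch; leaving out a replicate gave 8.33 to 61.4%, the low value without replicate 2, and the narrower bounds gave 44.5%. The 4 shared replicate 2 peaks were 4 under every other overlap rule, and 2 with the better-scoring 50% of each list. The median score of members exceeded that of the rest of the chromosome by 4.22, by 12.3 among peaks without a partner, and with lists of equal length the sign turned, to -14.0; the cause was not tested. The median width difference of -222 bp became -446 bp, and the spacing difference of -100.1 kb became -326 kb, with lists of equal length. No paired analysis was possible because both lists belong to the same group. Read depth is unknown, so a site missing from a list may be undetected.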
